A study of Mus musculus with 60 samples.

Results

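The comparison described here is active against inactive MYC in mouse pancreatic islets at 4 h, the earliest of the 5 times sampled. Its members were chosen by their labels, as all arrays of the 4 h time point that the submitters kept, and they are 11 of 60 arrays: 5 MycON arrays (2 with exenatide and 3 with water) and 6 MycOFF arrays (3 with exenatide and 3 with water). All mice carried the pIns-MYCERTAM transgene, which places a MYC protein joined to a modified oestrogen receptor under an insulin promoter and so in beta cells. The fusion protein is made in every group and is inactive until 4-hydroxytamoxifen (4OHT) binds it. MycON mice received 1 mg of 4OHT by daily intraperitoneal injection, and MycOFF mice received peanut oil, its vehicle. Exenatide, the peptide exendin-4, is an agonist of the glucagon-like peptide 1 receptor and was given under the skin at 50 µg/kg, or water in its place, from 2 days before the first 4OHT dose. The mice were males of a CBA-C57BL/6 background, with an age of 8 to 12 weeks in one label field and of 3 months in another. Islets were cut by laser from frozen pancreas sections, and RNA from them was hybridised to Affymetrix expression arrays. The labels call the arrays of a group biological replicates but tie none of them to a named animal. No group without the fusion received 4OHT, so a response to the drug and a response to MYC cannot be told apart in these arrays.

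MYC is a transcription factor that binds DNA as a pair with MAX, most often at the E-box sequence, and is best known for raising genes of ribosome assembly, nucleotide synthesis, mitochondrial growth and cell cycle entry. Switchable MYC in beta cells is a standard model of a growth signal in a resting endocrine cell, in which beta cells first enter the cell cycle and later lose insulin and die. The switch acts on the fusion protein and not on its RNA, so no probe set checks it. The endogenous Myc gene had 1 probe set, which varied too little over the arrays to enter the test, with a log2 difference of -0.04 ± 0.07 (SE).

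Every value below is a log2 value that the authors had centred on the median of its probe set over all 60 arrays. A value of 1 therefore stands 2-fold above that median, and no value gives an absolute level. One probe set stood for each gene, and 13176 of 18193 named genes varied enough to be tested. Effects are log2 differences, MycON minus MycOFF, from a linear model (limma) with the injection as a covariate, and a gene was called at a Benjamini-Hochberg adjusted p under 0.05. The spread of log2 values over all probe sets was 0.288 to 0.683 (SD) in the 11 arrays. Over the 13176 genes tested, which were chosen to vary, that spread was 0.410 to 0.938. Over the same genes the differences between any 2 arrays of a group had an SD of 0.555 to 1.04. A tissue sample of this kind cannot tell fewer cells of a type from less RNA per cell.

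The largest rises at 4 h were in Ptger3, Rasd2, Slc16a1, Ankrd6 and Ung. Promoter windows are shown for 4 of the 15 genes that rose most, because each holds CACGTG, the E-box that MYC and MAX bind, which is set in capitals. All are from RefSeq on build GRCm38.p6, run 5′ to 3′ along the gene's own strand, and hold 250 bases before the annotated start and 50 from it on. The window of Slc16a1 is chr3:104638414-104638713 on the plus strand, with the motif 200 bases before the start. For Ak4 the window is chr4:101419453-101419752 on the plus strand, with the motif 214 bases before the start, and it is 1 of 4 windows listed for that gene. The window of Ifi30 is chr8:70766614-70766913 on the minus strand, with the motif 196 bases before the start. For Tspan4 it is chr7:141476130-141476429 on the plus strand, with the motif 51 bases before the start, in 1 of 2 windows listed.
Slc16a1: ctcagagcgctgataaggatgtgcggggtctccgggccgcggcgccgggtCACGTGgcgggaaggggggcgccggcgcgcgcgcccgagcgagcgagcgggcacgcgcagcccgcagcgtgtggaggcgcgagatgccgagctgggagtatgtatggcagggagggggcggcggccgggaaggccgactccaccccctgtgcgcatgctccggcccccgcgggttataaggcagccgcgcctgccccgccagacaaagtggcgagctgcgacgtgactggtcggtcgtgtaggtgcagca
Ak4: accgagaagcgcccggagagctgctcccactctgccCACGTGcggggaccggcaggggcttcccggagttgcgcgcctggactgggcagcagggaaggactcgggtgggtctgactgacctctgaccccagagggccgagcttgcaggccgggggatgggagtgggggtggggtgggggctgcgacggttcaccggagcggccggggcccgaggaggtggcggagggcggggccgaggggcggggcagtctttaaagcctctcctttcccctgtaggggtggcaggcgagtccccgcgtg
Ifi30: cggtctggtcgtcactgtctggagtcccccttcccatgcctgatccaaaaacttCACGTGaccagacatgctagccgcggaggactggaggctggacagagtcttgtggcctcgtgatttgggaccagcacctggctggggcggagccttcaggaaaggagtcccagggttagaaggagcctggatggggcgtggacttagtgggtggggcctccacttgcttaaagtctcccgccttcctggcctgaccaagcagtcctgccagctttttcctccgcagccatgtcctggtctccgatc
Tspan4: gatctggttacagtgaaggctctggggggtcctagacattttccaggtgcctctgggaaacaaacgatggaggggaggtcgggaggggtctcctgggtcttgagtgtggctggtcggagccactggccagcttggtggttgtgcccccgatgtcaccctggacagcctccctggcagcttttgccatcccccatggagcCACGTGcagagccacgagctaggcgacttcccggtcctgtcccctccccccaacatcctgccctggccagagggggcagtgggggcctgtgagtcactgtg
The search was for the 6 letters CACGTG, which read the same on both strands. Among the 15 largest rises, 5 of 12 genes with a listed window held it, the fifth being Trmt61b. Among the 15 largest falls, 2 of 11 did. The rises had more windows per gene (1.58, against 1.27 for all genes tested). Counted by window, 5 of 19 held it for the rises and 2 of 15 for the falls, against 9.51% for all genes tested. Over all genes called higher, 27 of 201 genes with a window held it (13.4%). The share was 14.6% (13 of 89) for genes called lower and 11.3% (1195 of 10622) for all genes tested. A match describes these letters in this window and does not show that MYC was bound there.

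At 4 h, 350 of 13176 genes differed between MycON and MycOFF islets (2.66%). Of these, 246 were higher in MycON islets (1.87% of genes tested) and 104 were lower (0.789%). The changes were large: 211 of the higher genes and 82 of the lower ones differed by at least 2-fold. The median over all genes tested was -0.05, and 39.8% of them stood above 0. All but 1 of the 350 genes had the same sign with exenatide and with water. They were called on the effect pooled over both injections in the same arrays, which by itself favours equal signs, so this count is a description. In 160 of the 246 higher genes every MycON array lay above every MycOFF array, a pattern that 2.07% of all genes showed. In 59 of the 104 lower genes every MycON array lay below every MycOFF array, which 1.58% of all genes did. The count of called genes moved with the arrays used and their weights: it was 105 when all 60 arrays entered, 1349 with array weights, 642 after quantile normalization and 232 without MycOFF water array 3. Without MycOFF exenatide array 2, whose log2 values were the most widely spread, it was 299. No called gene changed sign in any of these fits. They share most of their 4 h arrays with the fit that chose the genes, so a change of sign was unlikely from the start.

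**Figure D1:**
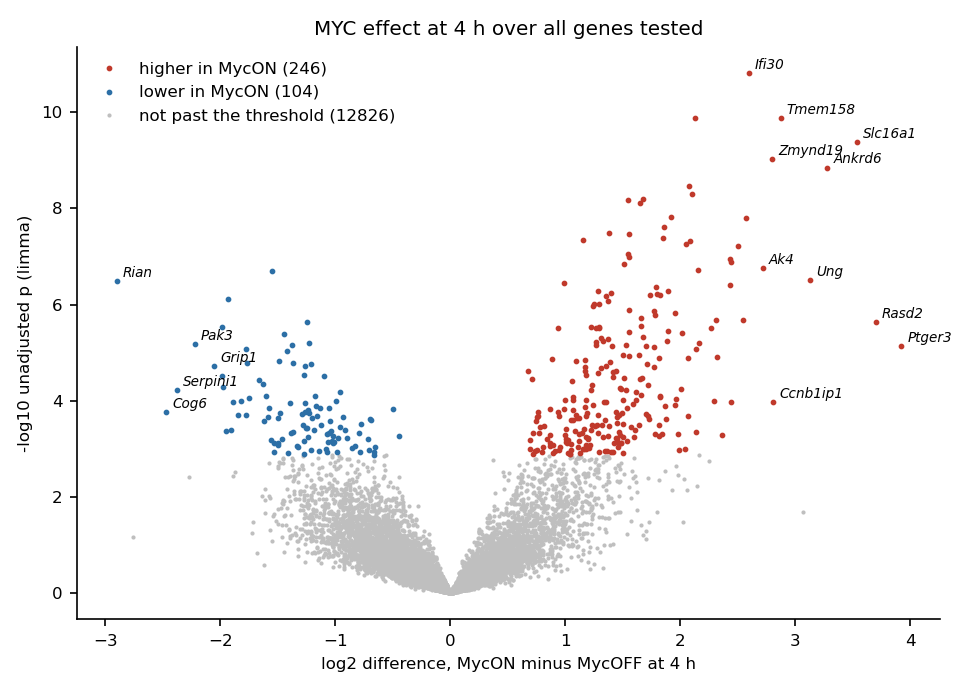
Log2 difference (MycON minus MycOFF at 4 h, horizontal) against -log10 of the unadjusted limma p (vertical) for each of the 13176 genes tested. The 246 genes called higher (red) reach 3.92 and the 104 called lower (blue) reach -2.90, with the genes not called in grey.

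Slc16a1 encodes the lactate and pyruvate transporter MCT1, which healthy beta cells keep at a very low level. Its values were 2.93 and 2.59 in the MycON exenatide arrays and 3.65, 2.95 and 3.11 in the MycON water arrays, against a lowest, median and highest value of -1.42, -0.41 and -0.01 in the 6 MycOFF arrays. The difference was 3.53 ± 0.43 (SE), an 11.6-fold rise (95% interval of the log2 difference 2.67 to 4.40, adjusted p = 1.38e-06). All 5 MycON arrays stood close together and far above the highest MycOFF array. The rise was 3.62 with exenatide and 3.47 with water.

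Ptger3, which encodes the EP3 receptor for prostaglandin E2, had the largest difference. Its values were 2.58 and 2.62 with exenatide and 3.80, 3.14 and 1.05 with water in MycON islets, against -1.94, -1.54 and -0.08 (lowest, median, highest) in MycOFF islets. The groups did not overlap, although 1 MycON water array stood well below the other 4. The difference was 3.92 ± 0.76 (adjusted p = 0.00118). Rasd2, a small GTPase of the RAS family, had values of 2.54, 2.41, 2.48, 2.58 and 3.77 in the MycON arrays, against -4.11, -0.37 and 1.03 in the MycOFF arrays. The spread of Rasd2 lay mostly on the MycOFF side, where 2 exenatide arrays were far below the rest, and the difference was 3.70 ± 0.67 (adjusted p = 0.000558). Ptger3 and Rasd2 were no longer called when all 60 arrays entered (adjusted p = 0.0505 and 0.104).

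Ankrd6, an ankyrin-repeat protein of WNT signalling also known as diversin, had values of 3.16 and 3.05 with exenatide and 3.90, 2.57 and 2.47 with water in MycON islets. The MycOFF values were -0.70, -0.17 and 0.07 (lowest, median, highest), and the difference was 3.28 ± 0.42 (adjusted p = 3.12e-06). Ung, the uracil-DNA glycosylase that starts repair of uracil in DNA, stood at 1.53 to 3.05 in MycON arrays and at -2.05 to -0.22 in MycOFF arrays. Neither gene overlapped between the groups. Ung rose by 3.13 ± 0.51 on the log2 scale (adjusted p = 0.000138), an 8.75-fold change.

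Ifi30 and Tspan4 rose with little spread between arrays. Ifi30, a thiol reductase of lysosomes, had values of 0.41, 0.71, 1.23, 0.83 and 1.58 in the MycON arrays, against -2.60, -1.59 and -1.14 (lowest, median, highest) in the MycOFF arrays. The difference was 2.59 ± 0.28, a 6.03-fold rise, with the smallest p of all 13176 genes (adjusted p = 2.02e-07). Tspan4, a membrane protein of the tetraspanin family, had values of -0.24, 0.10, 0.21, -0.10 and 0.68 in the MycON arrays, against -2.73, -2.55 and -1.88 in the MycOFF arrays. Both genes were well separated, and the Tspan4 difference was 2.57 ± 0.36 (adjusted p = 1.61e-05). The other genes among the 15 largest rises were Tmem158 (2.87), Ccnb1ip1 (2.81), Zmynd19 (2.80), Ak4 (2.71), Slc6a15 (2.55), Znrd2 (2.50), Naf1 (2.44) and Trmt61b (2.44). Slc6a15 is a transporter of neutral amino acids, Naf1 an assembly factor of the H/ACA particles that modify RNA, and Trmt61b a methyltransferase of mitochondrial tRNA. In all 15 the lowest MycON array exceeded the highest MycOFF array, as in 160 of the 246 higher genes and 2.07% of all genes. The 15 were chosen for large differences in these same arrays, which favours such a gap.

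The largest fall was in Rian, a maternally expressed noncoding RNA that hosts small nucleolar RNAs. Its values were -1.29 and -3.12 with exenatide and -3.39, -2.30 and -2.53 with water in MycON islets, against -0.24, 0.25 and 1.17 (lowest, median, highest) in MycOFF islets. The difference was -2.90 ± 0.47 (adjusted p = 0.000138), a 7.48-fold fall. The groups did not overlap for this probe set. Of the 3 other Rian probe sets, 2 were lower in MycON as well (-0.97 and -1.07) and 1 was not (0.31).

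Trp53inp2, a regulator of autophagy, fell with little spread between arrays. Its values were -0.92, -0.90, -1.07, -0.66 and -1.29 in the MycON arrays, against 0.59, 1.09 and 1.47 (lowest, median, highest) in the MycOFF arrays. The difference was -1.99 ± 0.36 (adjusted p = 0.000652), and a wide gap separated the groups. Armcx3, an outer mitochondrial membrane protein that takes part in mitochondrial transport, had values of -2.41, -1.47, -1.62, -0.87 and -1.15 in the MycON arrays, against 0.11, 0.26 and 0.87 in the MycOFF arrays. It fell by 1.93 ± 0.33 (adjusted p = 0.000241), and its other probe set gave -1.68.

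The other large falls were in genes of varied function. Cog6 (-2.47), a subunit of a Golgi tethering complex, Serpini1 (-2.38), the protease inhibitor neuroserpin, Pak3 (-2.23), a p21-activated kinase, and Grip1 (-2.06), a PDZ scaffold of glutamate receptors, did not overlap between the groups. The nucleosome assembly proteins Nap1l5 (-1.99) and Nap1l2 (-1.89) did not overlap either, nor did Agpat4 (-1.82), an acyltransferase of phospholipid synthesis, or the transcription factor gene Foxj2 (-1.85). With all 60 arrays Pak3, Nap1l5, Nap1l2 and Agpat4 were no longer called (adjusted p = 0.157, 0.290, 0.217 and 0.0651). Nap1l2 also lost its call with only the 11 arrays of 4 h and without MycON exenatide array 1 (adjusted p = 0.0717), and Agpat4 without MycON exenatide array 2 (adjusted p = 0.0505). Foxj2 lost it without MycON exenatide array 2 and without MycOFF water array 3 (adjusted p up to 0.0628). Fer1l6 (-1.98), Hid1 (-1.95), Ip6k1 (-1.91) and Slc66a1 (-1.78) overlapped in at least 1 array. Hid1, a protein of dense-core granule formation, had adjusted p = 0.0232 and lost its call when any single one of 7 of the 11 arrays was left out. Ip6k1, an inositol hexakisphosphate kinase, had adjusted p = 0.023 and lost it when any single one of 6 was left out. Cog6 was no longer called without MycON exenatide array 1 (adjusted p = 0.0887), which held its lowest value of -3.01.

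**Figure D2:**
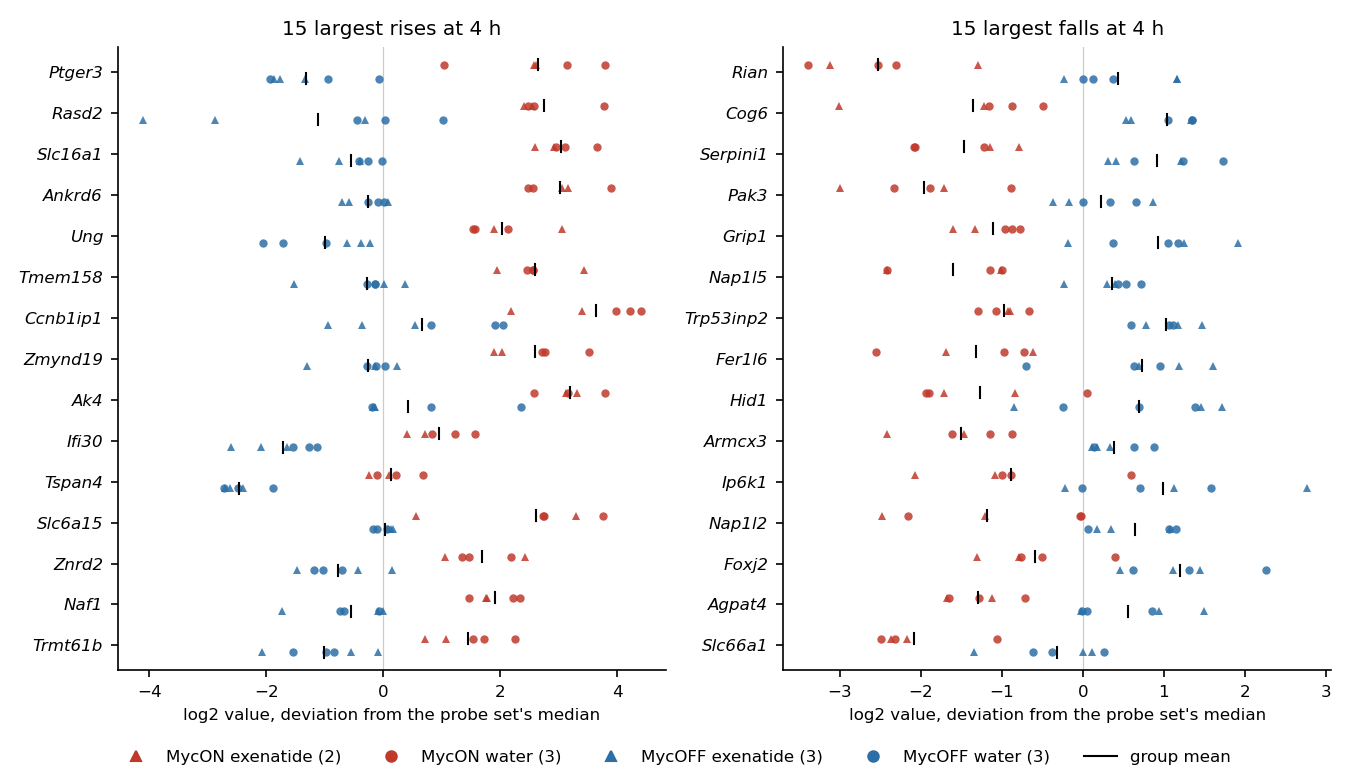
Log2 value of each array (horizontal, deviation from the probe set's median) for the 15 largest rises (left) and the 15 largest falls (right), with MycON arrays in red above MycOFF arrays in blue, triangles for exenatide, circles for water and a black bar for the group mean. In all 15 rises the MycON arrays stand clear of the MycOFF arrays, and in 4 of the falls (Fer1l6, Hid1, Ip6k1, Slc66a1) they overlap. The genes were chosen by their differences in these same arrays.

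Of the 30 genes with the largest changes, 18 had at least 1 other probe set. Of those 32 other probe sets, 26 had the same sign as the one used, but 14 lay within 0.1 of 0. The second Zmynd19 and Znrd2 probe sets gave differences of 1.67 and 1.71, and the second Rasd2 probe set gave 1.29. The other probe set was near 0 for Ptger3 (0.01), Slc16a1 (0.05) and Foxj2 (0.03), as were both others of Tmem158 (0.02 and 0.01), and 1 of 4 others of Ak4 had the same sign (0.44). The near-0 probe sets named here hardly varied over the 52 arrays kept, and each gene was represented by its most variable probe set. Ip6k1 differed from these: its 4 other probe sets gave -0.08 to -0.01. The one at -0.08 did vary (interquartile range 0.645, against 1.11 for the one used). Ip6k1 lost its call with the mean over its probe sets and with only the 11 arrays of 4 h (adjusted p up to 0.130 in limma). Of 80 genes whose probe sets were compared, 12 were represented by one of a design that can match transcripts of more than 1 gene: Agpat4, Ak4, Cdca8, Dkc1, Ins2, Mcm5, Ncaph, Polr1e, Ppat, Rasd2, Slc29a2 and Taf1c. Signal from other genes in these was not tested.

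Genes of ribosome assembly formed the largest group of called genes among the lists examined. Of 39 tested, 10 were higher and 0 lower, which is 25.6% against 1.87% of all genes called higher, and 38 stood above 0. Their median was 0.82, against -0.05 over all genes. The 10 were Dkc1 (2.32), Nolc1 (2.16), Ddx10 (1.88), Rrp1b (1.72), Nop16 (1.70), Grwd1 (1.67), Rrp12 (1.37), Nop2 (1.12), Wdr75 (0.93) and Wdr43 (0.89). Ncl (0.18 ± 0.76) and Npm1 (-0.07 ± 0.42), the abundant nucleolar proteins nucleolin and nucleophosmin, were not called with the probe sets used, whose intervals were -1.37 to 1.72 and -0.92 to 0.77. All 4 other Ncl probe sets stood above 0, and 1 of them gave 1.50, with values of 0.71 to 1.74 in MycON arrays and -1.13 to 0.09 in MycOFF arrays. The other Npm1 probe set gave 0.28. Across other settings and without single arrays, the count of 10 lay between 6 (all 60 arrays) and 20 (array weights).

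Dkc1 encodes dyskerin, the pseudouridine synthase of H/ACA particles. Its values were 1.74 and 0.81 with exenatide and 1.96, 1.90 and 1.30 with water in MycON islets, against -1.87, -0.67 and 0.33 (lowest, median, highest) in MycOFF islets. The difference was 2.32 ± 0.46 (adjusted p = 0.00181), and its other probe sets gave 0.99 and 1.17. Nolc1, a nucleolar chaperone of such particles, had values of 1.24, 1.85, 2.38, 2.17 and 2.89 in the MycON arrays, against -1.45, -0.06 and 1.19 in the MycOFF arrays. The lowest MycON array stood only just above the highest MycOFF array, and the difference was 2.16 ± 0.42 (adjusted p = 0.00113). Wdr75, a factor of early ribosomal RNA processing, showed a smaller change with little spread: 0.81, 1.02, 1.03, 1.03 and 0.89 in MycON, against -0.51, 0.06 and 0.36 in MycOFF (adjusted p = 0.000652).

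The mean over the 39 genes was 0.33 and 0.70 in the MycON exenatide arrays and 0.76, 0.79 and 1.13 in the MycON water arrays, against -0.24 to 0.07 in the 6 MycOFF arrays. No array of one group reached the range of the other. The polymerases that make ribosomal and transfer RNA had 4 of 30 genes higher (13.3%, against 1.87% of all genes), 0 lower and a median of 0.29. Those 4 were Polr3g (2.08 ± 0.31, adjusted p = 3.35e-05) and Polr1b (1.97), subunits of RNA polymerase III and I, Polr1e (1.64 ± 0.33) and Taf1c (1.56 ± 0.24), a subunit of the factor that places polymerase I on ribosomal DNA. Polr1c, a subunit shared by both polymerases, stood at -1.20 and was not called. Of 24 translation initiation genes, 1 was called (4.17%, against 2.66% of all genes). It was Eif4ebp2 (0.80 ± 0.23, adjusted p = 0.0461), an inhibitor of cap binding, which lost the call under 7 of 9 other settings. Of 19 tRNA synthetases and of 15 ribosomal proteins 0 were called, with medians of 0.28 and -0.27, and the synthetase median was -0.07 without MycON water array 3. At an unadjusted p under 0.05 in limma, 2 of the synthetases and 0 of the ribosomal proteins passed, as did 1664 of all 13176 genes.

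The nucleotide synthesis list had 5 of 25 genes higher (20%, against 1.87% of all genes), 0 lower and a median of 0.58. Its called genes were Ak4 (2.71 ± 0.43), an adenylate kinase of mitochondria, Dctd (1.92 ± 0.27), the deaminase of deoxycytidylate, Pfas (1.78) and Ppat (1.19 ± 0.29), enzymes of the purine pathway, and Ctps (1.35 ± 0.28), which makes cytidine triphosphate. Dctd had values of 1.39 and 1.85 with exenatide and 2.26, 2.02 and 1.81 with water in MycON islets, against -0.20, -0.10 and 0.15 (lowest, median, highest) in MycOFF islets (adjusted p = 1.61e-05). The MycOFF arrays hardly differed from each other, and every MycON array was far above them. Ppat, for which the groups overlapped, lost its call when only the 11 arrays of 4 h entered, with all 60 arrays, with the mean over its probe sets (adjusted p up to 0.483) and without any single one of 3 arrays (up to 0.0747).

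Psat1, the aminotransferase of serine synthesis, was the one called gene of 12 in the serine and one-carbon list (8.33%, against 2.66% of all genes). The median of that list was 0.83. Psat1 had values of 0.04 and 0.45 with exenatide and 0.73, 2.03 and 0.96 with water in MycON islets, against -1.59, -1.12 and -0.68 (lowest, median, highest) in MycOFF islets. The Psat1 difference was 1.95 ± 0.46 (adjusted p = 0.0101), without overlap but with a wide spread among the MycON arrays. Phgdh (0.84), Shmt2 (1.37) and Shmt1 (1.29) of the same pathway were not called. Of 13 amino acid transporters 3 were higher (23.1%, against 1.87% of all genes). Slc7a1 (1.55 ± 0.27, adjusted p = 0.000368) carries arginine and lysine. Slc38a2 (1.06 ± 0.24, adjusted p = 0.00794) is a sodium-coupled carrier of neutral amino acids, and Slc6a9 (0.78 ± 0.20, adjusted p = 0.0202) a glycine carrier. The other Slc38a2 probe sets gave -0.03 and -0.07, and Slc38a2 lost its call with the mean over its probe sets (adjusted p = 0.462).

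Of 24 genes of mitochondrial chaperones and protein import, 4 were higher (16.7%, against 1.87% of all genes) and 0 lower, with a median of 0.45. Timm8a1, a small chaperone of the space between the mitochondrial membranes, stood at 0.89 to 1.87 in MycON arrays and at -1.28 to -0.04 in MycOFF arrays (1.89 ± 0.32, adjusted p = 0.000196). Tomm70a (1.23 ± 0.27) and Tomm20 (1.04) are receptors of the outer membrane, and Timm23 (0.77 ± 0.20) is the channel of the inner membrane. Timm23 lost its call with the replicate number as a block and under 2 other settings. The chaperones Hspd1 (0.09) and Hspe1 (0.15) were not called.

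Glycolysis had 1 called gene of 16 (6.25%, against 2.66% of all genes), Slc16a1, and a median of -0.19. Its enzymes Aldoa (-1.20), Pfkl (-1.11) and Ldha (-0.29), which turns pyruvate into lactate, were not called. Of 11 genes of polyamine metabolism 1 was called (9.09%, against 2.66% of all genes). That gene, Oaz2, an inhibitor of ornithine decarboxylase, was lower (-1.23 ± 0.30, adjusted p = 0.0132). Oaz2 lost the call with only the 11 arrays of 4 h and with all 60 arrays (adjusted p up to 0.0758). The other Oaz2 probe sets gave -0.17 and -0.11. Odc1, the decarboxylase itself, stood at 0.51 ± 0.38 and was not called. Its other probe sets gave 0.42 and 0.79. The one at 0.79 did not overlap between the groups, at 0.54 to 1.27 in MycON arrays and -0.48 to 0.35 in MycOFF arrays. Of 31 genes long known as MYC targets, 4 were higher (12.9%, against 1.87% of all genes) and 0 lower, with a median of 0.56. Those 4 were Dkc1, Cdc25a, Ppat and Pa2g4. Ccnd2 (0.07 ± 0.70) and Cdk4 (-0.80 ± 0.89) of that list were not called with the probe sets used. Of 6 other Ccnd2 probe sets 5 stood above 0, between -0.05 and 0.92 in all, and both other Cdk4 probe sets stood below 0 (-0.19 and -0.42). The MYC and MAX network itself had 0 of 12 genes called in limma, among them Max (0.32 ± 0.14, adjusted p = 0.296) and Mxi1 (1.07). Of the 12, 3 passed at an unadjusted p under 0.05, against 1664 of all 13176 genes.

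**Figure D3:**
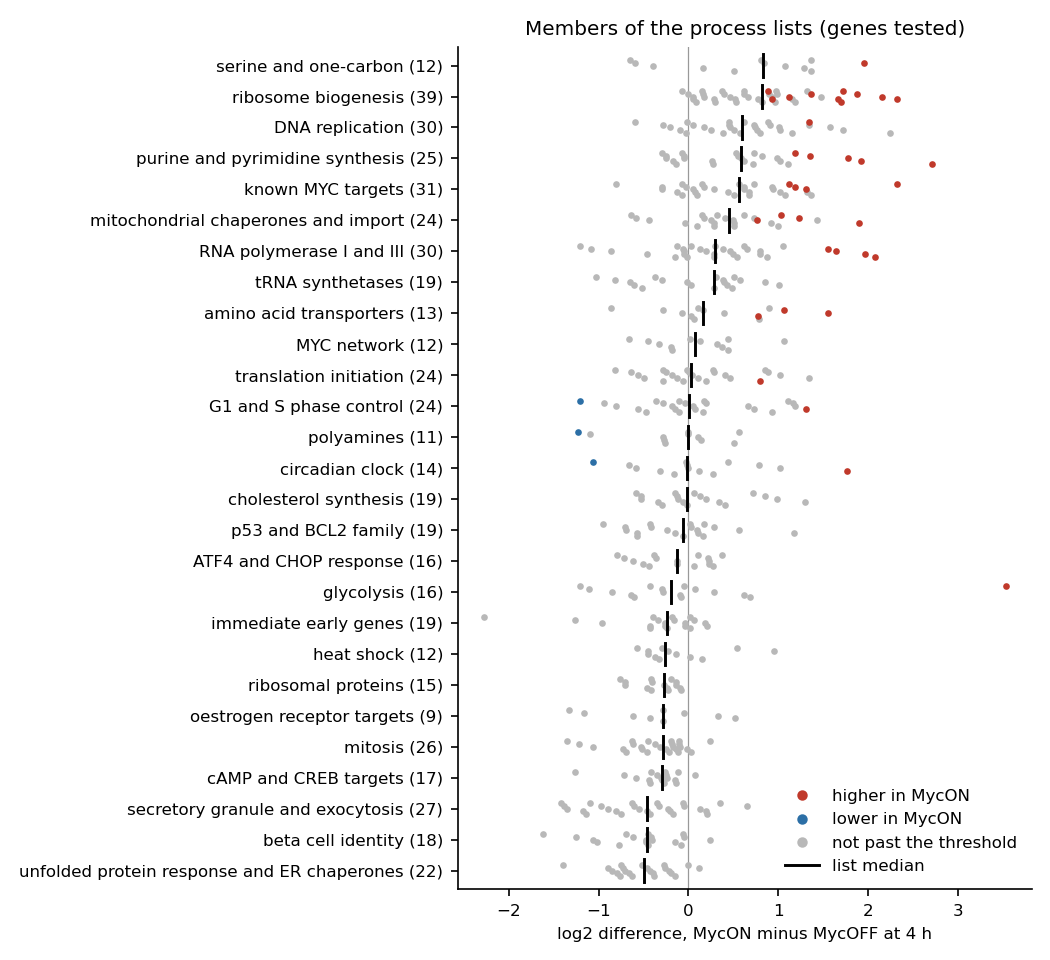
Log2 difference (MycON minus MycOFF at 4 h, horizontal) of each tested gene in 27 process lists, with the number tested in brackets, genes called higher in red, called lower in blue, not called in grey, and a black bar at the list median. The lists of serine and one-carbon genes (median 0.83) and ribosome biogenesis (0.82) stand at the top, and the unfolded protein response list (-0.49) at the bottom.

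Few cell cycle genes were called at 4 h, and their number moved with the fit: 1 to 10 DNA replication genes and 1 to 6 genes of G1 and S phase control over the settings tried, the highest with array weights. Of 30 DNA replication genes, 1 was higher (3.33%, near the 1.87% of all genes): Orc2 (1.34 ± 0.31, adjusted p = 0.00917), a subunit of the origin recognition complex. Their median was 0.60, with 24 above 0. At an unadjusted p under 0.05 in limma, 8 of the 30 passed, against 1664 of all 13176 genes. Cdt1, which loads the MCM helicase onto origins, had values of 1.50 and 0.98 with exenatide and 0.31, 1.23 and 0.78 with water in MycON islets, against -2.20, -1.43 and -0.12 (lowest, median, highest) in MycOFF islets. The groups did not overlap, but the difference of 2.25 ± 0.67 fell short of the threshold (adjusted p = 0.0603). Cdt1 was called under 5 of 9 other settings, among them the fit of only the 11 arrays of 4 h (adjusted p = 0.0059). Its other probe sets gave 1.08 and -0.08. Mcm5, a helicase subunit, stood at 1.57 ± 0.70 (adjusted p = 0.315), with its other probe sets at 0.06 and 0.00. Of 26 mitosis genes 0 were called in limma, with a median of -0.28. At an unadjusted p under 0.05, 1 of them passed, against 1664 of all 13176 genes. The mean of the mitosis list was 1.19 in MycOFF exenatide array 3. It was -0.23 to 0.17 in the other MycOFF arrays and -0.38 to -0.01 in the MycON arrays.

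Among 24 genes of G1 and S phase control, 1 was higher and 1 lower (4.17% each, against 1.87% and 0.789% of all genes). Cdc25a, a phosphatase that activates cyclin-dependent kinases, had values of 0.76 and 0.68 with exenatide and 1.97, 1.53 and 1.02 with water in MycON islets, against -0.68, -0.30 and 0.38 (lowest, median, highest) in MycOFF islets (1.31 ± 0.25, adjusted p = 0.00097). Cdkn2b, the inhibitor p15 of CDK4 and CDK6, stood at -0.67, -1.40, 0.02, -0.21 and -0.66 in the MycON arrays, against -0.01, 0.68 and 1.18 in the MycOFF arrays. Cdkn2b fell by 1.21 ± 0.25 (adjusted p = 0.00229), with 1 MycON water array just inside the MycOFF range. Among 14 circadian clock genes 2 were called (14.3%, against 2.66% of all genes). These transcription factor genes, Hlf and Nfil3, bind the same DNA element and had opposite signs (1.77 ± 0.34, adjusted p = 0.00123, and -1.06 ± 0.25, adjusted p = 0.0111).

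Lists of the beta cell's own functions had no called gene at 4 h in the fit used, but 2 identity genes were called after quantile normalization and 6 granule genes with array weights. For beta cell identity 0 of 18 genes were called in limma, with a median of -0.46 and 17 of 18 below 0. Of the 18, 2 passed at an unadjusted p under 0.05, against 1664 of all 13176 genes. Ins2, an insulin gene, had values of -6.01 and 0.60 with exenatide and -3.89, -3.59 and 0.93 with water in MycON islets, against -6.91, 0.64 and 0.95 (lowest, median, highest) in MycOFF islets. In MycON 3 arrays and in MycOFF 1 array stood far below the rest. The difference was -1.62 ± 1.41 (adjusted p = 0.755), with an interval of -4.47 to 1.23. Pdx1, a transcription factor of beta cell identity, stood at -0.47 ± 0.29 (adjusted p = 0.584), and its other probe set gave -1.17, at -2.32 to 0.85 in MycON arrays and -0.43 to 0.71 in MycOFF arrays. Ucn3, a peptide that beta cells make once mature, stood at -1.07 ± 0.68 (adjusted p = 0.59). Ins1 and Mafa were not tested here.

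Of 27 secretory granule and exocytosis genes 0 were called in limma (6 at an unadjusted p under 0.05, median -0.46). Over all 13176 genes 1664 passed at that unadjusted level, which is the measure for each such count below. The unfolded protein response and ER chaperone list had 0 of 22 called (5 at an unadjusted p under 0.05), a median of -0.49 and 21 of 22 below 0. The cAMP and CREB target list had 0 of 17 called (1 at an unadjusted p under 0.05) and a median of -0.30. Its mean was -0.26 to 0.10 over the MycON arrays and 0.12 to 0.84 over the MycOFF arrays, so the ranges did not overlap, by a narrow margin. Of 19 immediate early genes and of 19 p53 and BCL2 family genes 0 were called (2 and 3 at an unadjusted p under 0.05, medians -0.24 and -0.06). The ATF4 and CHOP, heat shock, cholesterol synthesis and oestrogen receptor target lists also had 0 called (1, 0, 2 and 0 at an unadjusted p under 0.05), with medians between -0.28 and -0.02. Of the signs of these medians, those of the ATF4 and cholesterol lists turned without single arrays, as did that of the p53 list. The oestrogen receptor target list was included because 4OHT binds oestrogen receptors.

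Markers of other cell types were examined in the same way, and 0 of the 79 tested in 7 lists were called in limma. Of the 79, 8 passed at an unadjusted p under 0.05, against 1664 of all 13176 genes. Of these 8, 4 were among the 16 acinar markers tested, and each other marker list held 0 or 1. Acinar markers had the highest median of any list, 1.15, with 15 of 16 above 0. Their mean was -0.68 to 1.80 in MycON arrays and -1.36 to 0.66 in MycOFF arrays, with wide overlap. The medians were -0.48 for duct, -0.41 for alpha, delta and PP cell, -0.28 for endothelial, -0.26 for stromal, -0.09 for immune and 0.05 for skin and muscle markers. Without MycON water array 2 the immune median was 0.05. The part of cell mixture in the called genes was not tested.

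**Figure D4:**
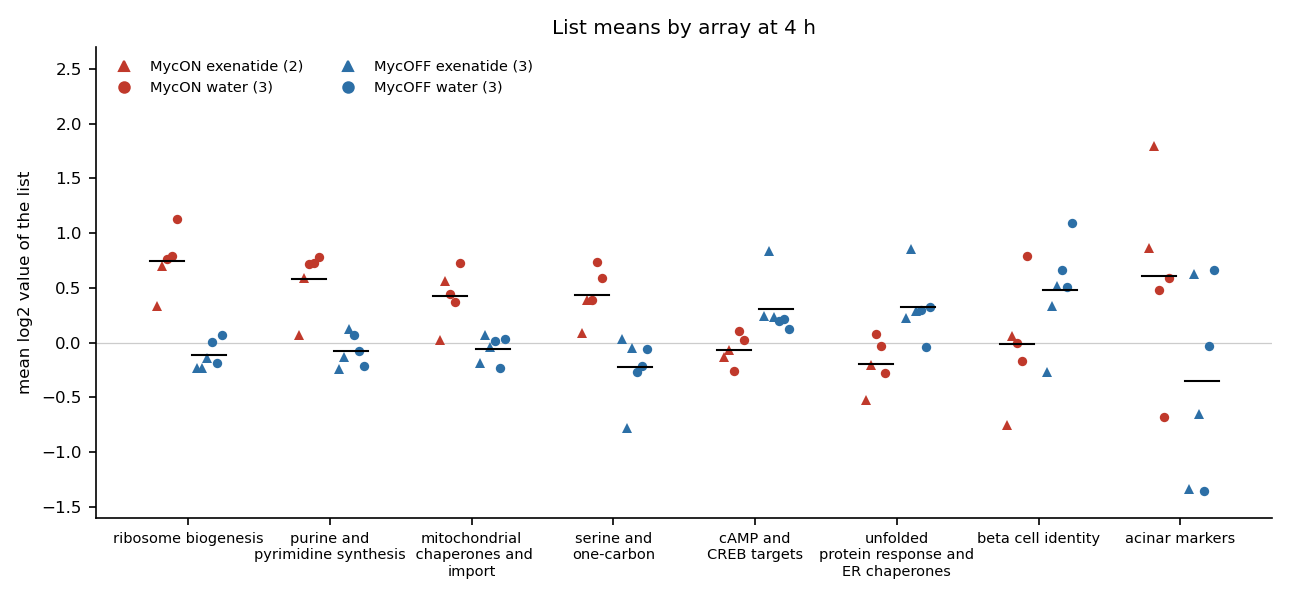
Mean log2 value over the tested genes of 8 lists (vertical) in each array of 4 h, MycON in red left of MycOFF in blue, triangles for exenatide, circles for water and a bar for the group mean. The ribosome biogenesis means are 0.33 to 1.13 in MycON arrays and -0.24 to 0.07 in MycOFF arrays, whereas acinar marker means overlap widely.

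The 5 MycON arrays pooled 2 injections, and the MYC effect was not shown to differ between them. The effect called 25 genes within exenatide alone (19 higher, 6 lower, 0.19% of genes tested) and 99 within water alone (92 higher, 7 lower, 0.751%). The interaction of MYC and injection called 0 genes in limma. An unadjusted p under 0.05 was found in 172 of 13176 genes, fewer than the 1 in 20 that chance alone gives on average. The smallest unadjusted interaction p belonged to Ccdc137, whose effect was 0.62 with exenatide and 2.29 with water (adjusted p of the interaction 1.0). Next came Slc16a4 (-0.32 and 1.36), Klk1b11 (1.15 and -0.01), Ipmk (-0.03 and 1.73) and Dll4 (1.30 and -0.03), with effects given for exenatide and then water. Without MycON exenatide array 1 the interaction called 1 gene, and without array 2 it called 2, but each of these fits leaves a MycON exenatide group of 1 array, whose spread is assumed to be that of the other groups.

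The genes called at 4 h were followed at the later times, which used other arrays. The median effect over the 246 higher genes was 1.41 at 4 h, 1.15 at 8 h, 0.28 at 16 h, 1.24 at 32 h and -0.09 at 72 h. Of these 246, 148 were also called higher at 8 h (60.2% of the 4 h genes and 32.3% of the 8 h genes), where 3.48% of all genes were. At 16 h 18 were called higher (7.32% of the 4 h genes, against 2.5% of all genes), at 32 h 151 (61.4%, and 43.9% of the 32 h genes, against 2.61%) and at 72 h 5 (2.03%, against 1.33%). The 72 h share was thus near that of all genes. The medians were above 1 at 4, 8 and 32 h and under 0.3 at 16 and 72 h. In the 104 lower genes the median was -1.26 at 4 h, -0.70 at 8 h, 0.13 at 16 h, -0.95 at 32 h and -0.01 at 72 h. Of them 28 were called lower at 8 h (26.9%, against 1.11% of all genes), 3 at 16 h (2.88%, against 0.304%), 39 at 32 h (37.5%, against 1.15%) and 0 at 72 h (against 0.296%). The 4 h value itself was used to choose these genes and is given as a description. Slc16a1 had an effect of 3.73, 1.80, 2.76 and -0.31 from 8 to 72 h, whereas Tspan4 stood at 3.82, 2.60, 3.63 and 1.80 and Ifi30 at 2.58, 2.02, 3.09 and 1.42. Of the 15 largest rises, Ccnb1ip1 had an effect of 1.97 at 8 h and was below 0 from 16 h on.

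**Figure D5:**
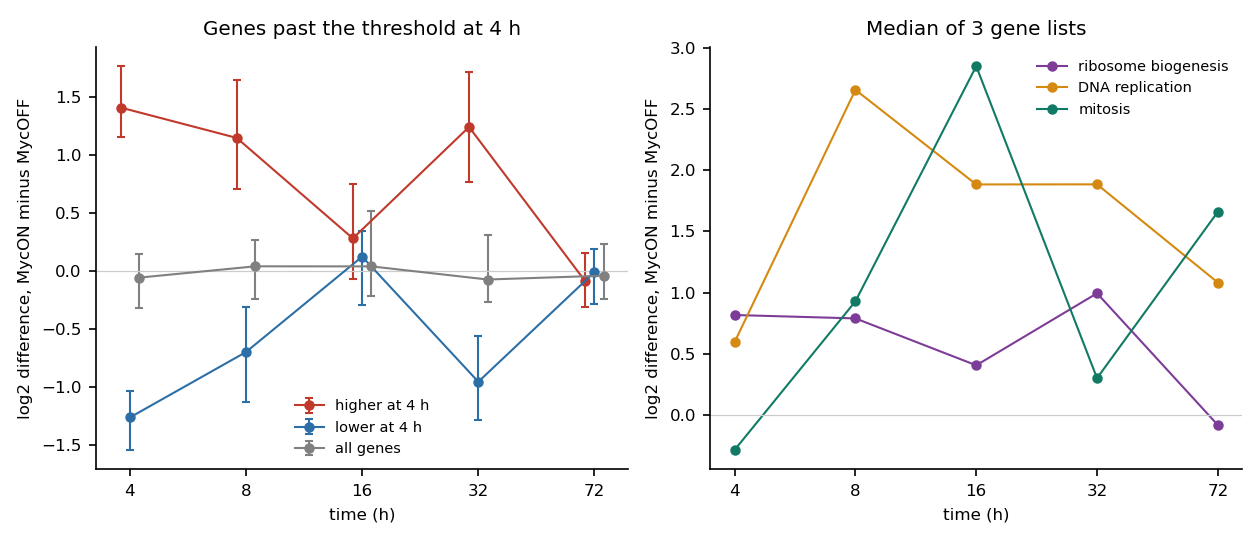
Log2 difference (MycON minus MycOFF, vertical) at 5 times (horizontal, evenly spaced). Left, median and quartiles of the 246 genes called higher at 4 h, the 104 called lower and all 13176 genes. Right, medians of 3 lists: ribosome biogenesis is 0.82 at 4 h and 0.79 at 8 h, while DNA replication is 0.60 and 2.66 and mitosis -0.28 and 0.93.

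Medians of 3 lists were followed over the same times, and their counts stand against 1.87%, 3.48%, 2.5%, 2.61% and 1.33% of all genes called higher at 4, 8, 16, 32 and 72 h. For ribosome biogenesis the median effect was 0.82, 0.79, 0.41, 1.00 and -0.08 over the 5 times, with 10, 13, 1, 13 and 0 of 39 genes called higher. For DNA replication the median was 0.60, 2.66, 1.88, 1.88 and 1.08, with 1, 25, 21, 18 and 7 of 30 genes called higher. For mitosis it was -0.28, 0.93, 2.85, 0.30 and 1.66, with 0, 5, 24, 0 and 10 of 26. At 8 h 604 of all genes were called (4.58%). The difference between the 8 h and the 4 h effect itself called 0 genes in limma, so the step between these times was not shown for single genes. An unadjusted p under 0.05 was found in 598 of 13176 genes, fewer than the 1 in 20 that chance alone gives on average.

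Set against the mean effect of the 4 later times, the 4 h effect differed in 25 genes (0.19%), 6 of them higher at 4 h and 19 lower. The 5 largest of the first kind were Gm13261 (1.94 ± 0.42), Klf16 (1.42 ± 0.26), Slc29a2 (1.35 ± 0.26), Wdr89 (1.13 ± 0.25) and Akap8 (1.12 ± 0.23). Klf16 is a zinc finger transcription factor, Slc29a2 a carrier of nucleosides and Akap8 a nuclear anchor of protein kinase A. Klf16 had values of 1.20 and 1.30 with exenatide and 1.36, 0.79 and 0.83 with water in MycON islets at 4 h, against -1.41, -0.48 and -0.03 (lowest, median, highest) in MycOFF islets. Its MYC effect was 1.67 at 4 h, 0.93 at 8 h, -0.07 at 16 h, 0.42 at 32 h and -0.26 at 72 h.

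Of the 19 genes, among 13176 tested, whose 4 h effect lay below the later mean, 4 were among the 26 tested genes of the mitosis list. The 5 largest were Top2a (-3.84 ± 0.75), the DNA topoisomerase of dividing cells, Cdca8 (-3.75 ± 0.80), also called borealin and part of the passenger complex, Tcf19 (-3.72 ± 0.82), Ncaph (-3.40 ± 0.78), a condensin subunit, and Cenpa (-3.33 ± 0.72), the histone of centromeres. Top2a had an effect of -1.22 ± 0.66 at 4 h (adjusted p = 0.464), against 2.03, 3.93, 1.76 and 2.75 at the later times. None of these 5 was called at 4 h. Of the 19, 3 were called lower at 4 h (Armcx3, Kif22 and Ahi1). The count of 25 was not stable: the comparison called 0 genes with all 60 arrays and 0 with the replicate number as a block. Without single 4 h arrays it called between 1 and 33. It called 1 without MycOFF exenatide array 3, where the mitosis list stood highest, and 1 without MycON water array 1.

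One further MycON exenatide array of 4 h was left out by the submitters. Its log2 values had an SD of 1.10 over all probe sets, and its list means were -3.71 for beta cell identity, -3.07 for secretory granules and 3.05 for immune markers, outside the range of the 11 arrays kept. The beta cell identity mean was -0.75 to 0.79 in the 5 MycON arrays and -0.27 to 1.09 in the 6 MycOFF arrays. Centred values give no level, so the islet label could be set only against other arrays in this way. In that array 90 of the 246 higher genes (36.6%) stood above every MycOFF array, and 59 of the 104 lower genes (56.7%) stood below. Over all genes the shares were 26.5% and 37.7%.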

How the data were processed

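RNA of laser-captured islets was measured on 60 Affymetrix mouse arrays. The deposited values are on a log2 scale and were centred by the authors: every probe set had a median of 0 over the 60 arrays (tolerance 1e-04). The log base was inferred from the range of the values (-12.3 to 12.8). MAS5 and GCRMA are listed in the submitters' processing notes, with no role or version. Probe sets were named through the platform annotation: of 45101, 34945 had 1 gene symbol, 932 several and 9160 none. Groups came from the labels. The labels mark 8 arrays as left out by the submitters, and the remaining 52 entered the fit.

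Each gene was represented by its probe set with the widest interquartile range over 52 arrays, and probe sets below the 40th percentile of that range (0.101) were left out. A filter on level was not possible on centred values. limma 3.58.1 in R 4.3.3 fitted MYC and injection as additive terms at each of 5 times (37 residual and 2.77 prior degrees of freedom), so the 4 h effect borrows its spread from all times. A second fit on 20 group means gave the interaction and the values within each injection. P-values were adjusted by Benjamini-Hochberg over all 13176 genes, and ± gives the SE. They measure the spread between arrays that the labels call biological replicates. The number of arrays limits the precision: in simulated data with these spreads, 38 of 100 genes changed by 1 log2 unit and 81 of 100 changed by 2 were recovered, with 3 unchanged genes called among 13176.

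The genes named were the 15 largest rises and 15 largest falls with 1 sign under both injections, up to 3 called members of each list by smallest p, the 5 smallest interaction p-values, the 5 largest differences in each direction from later times, and 14 fixed genes. Further list members are named beside the counts they belong to and were chosen after their values were seen. The comparison, its 34 gene lists and its tests were chosen with earlier results of these data known. Alternatives varied the arrays used, the normalization, the filter, the probe set rule, array weights and a replicate block. Python 3.11.15 with pandas 2.3.3 searched the RefSeq promoter windows, and matplotlib 3.10.9 drew the figures.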

Additional observations from a re-analysis of the deposited data

Results flagged for a closer look

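In 7 of 82 groups of named genes 1 array stood far from the others by Dixon's test at the 95% level, which chance gives in about 1 of 20 groups. In MycON islets, Rasd2 was 3.77 in water array 3 (nearest 2.58), Cog6 was -3.01 in exenatide array 1 (nearest -1.22) and Slc66a1 was -1.05 in water array 3 (nearest -2.17). In MycOFF islets, Tmem158 was -1.53 in exenatide array 3 (nearest -0.27), Zmynd19 was -1.31 in exenatide array 2 (nearest -0.28), Ins2 was -6.91 in exenatide array 1 (nearest -1.41) and Odc1 was -1.17 in water array 2 (nearest -0.00).

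The MYC effect at 4 h differed from the mean effect of the later times, by a test of that difference, in Gm13261 (1.94), Klf16 (1.42), Slc29a2 (1.35), Wdr89 (1.13) and Akap8 (1.12), which were higher at 4 h. It was lower at 4 h in Top2a (-3.84), Cdca8 (-3.75), Tcf19 (-3.72), Ncaph (-3.40) and Cenpa (-3.33).

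In the 4 h MycON exenatide array that the submitters left out, 36.6% of the genes called higher at 4 h stood above every MycOFF array, against 26.5% of all genes.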

How the results depend on the processing

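The 4 h MYC effect called 350 genes. It called 105 with all 60 arrays, 642 after quantile normalization, 1349 with array weights (whose estimation stopped before it converged), 99 within water alone and 25 within exenatide alone, and 232 to 352 without single 4 h arrays, the lowest without MycOFF water array 3. With only the 11 arrays of 4 h it called 356, of which 223 were among the 350. The share of higher genes was 70.3%, against 81.0% with all 60 arrays and 53.2% with array weights. No gene of the 350 changed sign, which was unlikely from the start in fits that share most 4 h arrays. Of 61 named genes called at 4 h, 31 kept the call under all 9 alternatives and without each of 11 arrays, and 26 lost it with all 60 arrays. Trp53inp2, Fer1l6, Ak4, Trmt61b, Polr3g, Ctps, Slc7a1 and Cdkn2b lost it in that setting alone. Without 1 array the call was lost by Ccnb1ip1 and Slc38a2 (MycON exenatide array 2, adjusted p = 0.0519 and 0.0503), Oaz2 (MycON exenatide array 1, 0.109), Psat1 (MycON water array 2, 0.0503), Gm13261 (MycON water array 1, 0.0587) and Slc66a1 (MycOFF water array 3, 0.0512), and without any single one of 3, 4, 6 and 9 arrays by Slc6a9, Timm23, Ipmk and Eif4ebp2.

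The interaction called 0 genes, and 0 to 2 without single arrays. The difference from later times called 25 genes: 7 on group means, 0 with all 60 arrays, 53 after quantile normalization, 7 without the filter, 422 with array weights and 1 to 33 without single arrays. The 8 h minus 4 h difference called 0 genes: 3 after quantile normalization, 34 with array weights and 0 to 1 without single arrays. In the interaction fits without a MycON exenatide array, the lone array left is assumed to vary like the other groups. With all 60 arrays, medians below 0 turned to 0.38 for immune markers, 0.22 for stromal markers, 0.17 for oestrogen receptor targets, 0.08 for cholesterol synthesis, 0.07 for immediate early genes and 0.03 for the p53 list. Without single arrays the cholesterol synthesis median reached 0.10, the ATF4 and CHOP median 0.07, the immune median 0.05 and the p53 median 0.01. Called genes per list ranged over settings from 2 to 9 each for known MYC targets, the RNA polymerases and mitochondrial import, from 1 to 7 for nucleotide synthesis, from 0 to 5 for serine and one-carbon genes, from 1 to 5 for amino acid transporters and from 0 to 4 for p53 and translation initiation genes, lowest mostly with all 60 arrays or only the 11 of 4 h and highest with array weights. The causes were not tested.

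Deviations of same-numbered arrays from their group means correlated at -0.28 to 0.45 (median -0.01). For arrays of different number the range was -0.49 to 0.36 (median -0.03). Deviations cancel within each small group, so these correlations depend on each other and cannot decide whether replicate numbers pair the arrays. With the replicate block the 4 h effect called 306 genes, 286 of them among the 350, and the difference from later times called 0.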
